A study of Homo sapiens with 12 samples.

Results

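RERF-LC-AI is a human cell line described as lung squamous cell carcinoma, and its LC-AI-maspin cells, which carry the serpin maspin on a lentiviral vector, were compared with its LC-AI-ctrl cells across all genes. The comparison takes 3 libraries of each group, 6 of the 12 libraries of the series, and the raw mapped-read counts of every line of the count table that carries a gene symbol. The other 6 libraries are the same pair of groups made from LK-2, another squamous cell carcinoma line, and enter only where the response of the lines is set side by side. The study asked how maspin that stays outside the nucleus, as in LC-AI-maspin cells, bears on invasion. LC-AI-ctrl cells carry a lentiviral vector for the green fluorescent protein ZsGreen, and LC-AI-maspin cells carry one for maspin together with ZsGreen. Both were selected with blasticidin, kept as pools of the surviving clones, grown in Eagle's minimum essential medium, and share the parental line. Nothing says that the 3 libraries of a group came from separate transductions, so that the p-values measure the spread between libraries of the same pool, and a change in all cells and a change in the share of some clones cannot be told apart.

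Maspin, the product of SERPINB5, belongs to the serpin family by its fold but does not block proteases. It is known as a tumour suppressor in several epithelia, where its activity has been tied to the nucleus, and it has been linked to cell adhesion, to the matrix and to histone deacetylases. Integrins, focal adhesion kinase and its relative PYK2 pass signals from the matrix to SRC kinases, the actin skeleton and the coactivator YAP, which with TEAD factors drives genes such as that for connective tissue growth factor.

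The libraries held 50143577 to 65454432 counts over 38434 named genes, and 25197 genes passed the filter on low counts and were tested. Levels are given as CPM, counts per 1 M counts of the library after scaling by TMM (trimmed mean of M values), and differences as log2 fold changes, maspin over ctrl, with a positive value for a gene that was higher in LC-AI-maspin cells. A gene is said to rise, fall or pass where edgeR's quasi-likelihood test gave a Benjamini-Hochberg adjusted p under 0.05 over all genes tested, and the value after a ± is the SE of a log2 fold change or the SD of 3 libraries. The first principal component, with 28.9% of the variance, separated the groups. Genes detected with at least 1 count numbered 32317 to 32358 in LC-AI-ctrl and 32829 to 33257 in LC-AI-maspin libraries. The genes for ribosomal RNA, which poly(A) selection should remove, summed to 4207, 4509 and 3671 CPM in LC-AI-ctrl and to 4849, 4997 and 5673 CPM in LC-AI-maspin libraries, so that the groups did not overlap; the part of this difference in the results below was not tested.

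The squamous label was checked against marker genes. The mean levels in LC-AI-ctrl libraries were near 0 for the factors TP63 (0.596 CPM) and SOX2 (0.363 CPM) and for the basal keratins KRT5 (0.0396 CPM), KRT6A (0.0897 CPM) and KRT14 (0.238 CPM). TRIM29 stood at 0.436 CPM and the desmoglein DSG3 at 1.54 CPM. Thus the squamous markers just named were absent or nearly so in these libraries, while SFN (79.8 CPM) and PERP (89.1 CPM), which other epithelia also express, were present. The 20 genes of the squamous marker list summed to 430 CPM in LC-AI-ctrl libraries, so that some members not named here were expressed too. The simple keratins KRT8 (1347 CPM) and KRT18 (559 CPM) and the mesenchymal filament vimentin, VIM (1661 CPM), were abundant, whereas E-cadherin, CDH1, stood at 2.75 CPM and EPCAM at 5.03 CPM. The adenocarcinoma factor NKX2-1 (0.198 CPM) was near 0 too. The 14 genes of the lung adenocarcinoma list, which include the keratin KRT7 described below, nevertheless summed to 238 CPM in LC-AI-ctrl libraries. The 13 genes of the neuroendocrine list summed to 627 CPM there. Of the 16 squamous markers tested, 1 was lower in LC-AI-maspin cells, SFN (log2 fold change -0.34 ± 0.05 (SE), adjusted p = 1.64e-05).

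SERPINB5 itself measured 0.271, 0.143 and 0.201 CPM in the LC-AI-ctrl libraries and 513, 479.6 and 438 CPM in the LC-AI-maspin libraries. The control cells thus held almost no maspin transcript and every LC-AI-maspin library held a high level (log2 fold change 11.18 ± 0.11 (SE), adjusted p = 5.61e-33), and the counts do not tell the transcript of the vector from that of the cell's own gene. PTK2B, the gene of the focal adhesion kinase relative PYK2, measured 5.59, 3.99 and 5.27 CPM in LC-AI-ctrl against 9.62, 8.62 and 9.82 CPM in LC-AI-maspin libraries. It was low in all libraries but higher in each LC-AI-maspin library than in any LC-AI-ctrl library (log2 fold change 0.92 ± 0.12 (SE), adjusted p = 2.25e-06). SRC, the kinase that PYK2 binds, measured 28.3, 25.2 and 26.6 CPM in LC-AI-ctrl against 29.3, 26.4 and 24.5 CPM in LC-AI-maspin libraries and the groups overlapped (log2 fold change 0.00 ± 0.07 (SE), adjusted p = 0.991). Among the other focal adhesion and SRC family kinases, focal adhesion kinase itself, PTK2, near the end of chromosome 8, fell from 123 ± 3.84 to 101 ± 2.49 CPM (means ± SD, n = 3 per group; log2 fold change -0.28 ± 0.05 (SE), adjusted p = 0.000116), and the SRC family member LYN, in a block of chromosome 8 described below, fell from 72.4 ± 3.56 to 56.5 ± 2.37 CPM (log2 fold change -0.36 ± 0.05 (SE), adjusted p = 1.69e-05). Of the 11 kinases of this list that were tested, 1 rose and 2 fell, which leaves 8 that were not called.

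In LC-AI-maspin cells 2655 genes passed the test at an adjusted p under 0.05, which is 10.5% of those tested, and the libraries of the groups did not overlap in 25.1% of the genes tested. Of these, 1010 were higher (4.01% of the genes tested) and 1645 lower (6.53%). Most changes were small. The median log2 fold change of the genes that passed was 0.31 for the higher and -0.28 for the lower ones, 375 of the higher and 725 of the lower genes changed by less than 1.2-fold, and 119 genes in all by more than 2-fold. The share of higher genes among the calls depended on the scaling, since with upper-quartile factors 1305 genes were higher and 1388 lower (48.5% and 51.5% of the calls), and with library size alone 1408 were higher and 1287 lower (52.2% and 47.8%). Without LC-AI-maspin replicate 3 the test called 1764 genes, of which 1069 were lower, and without LC-AI-ctrl replicate 3 the higher genes numbered 628. Genes at a mean under 1 CPM were called in 0.848% of cases and those over 100 CPM in 26.2%, so that depth limited what could be called among the weakly expressed genes.

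The genes that passed the test were not spread evenly over the genome. Neighbouring genes of chromosomes 3, 6, 7, 8, 9 and 11 moved together over long stretches, those of most of chromosome 9q down, those of the tip of 3p up, and those of the left and right portions of chromosome 11 in opposite directions. The scan took the 9980 genes with a mean of at least 10 CPM and a known position, cut each chromosome into windows of 10 Mb, and joined adjacent windows of at least 10 genes whose median lay over 0.1 from the median of all these genes, which was -0.03. It found 10 such blocks, 5 above and 5 below. The rule was written after the pattern had been seen and uses the same fold changes, so that the values of a block describe it and test nothing. DNA copy number was not measured in this series, and its part in these shifts was not tested.

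**Figure D1:**
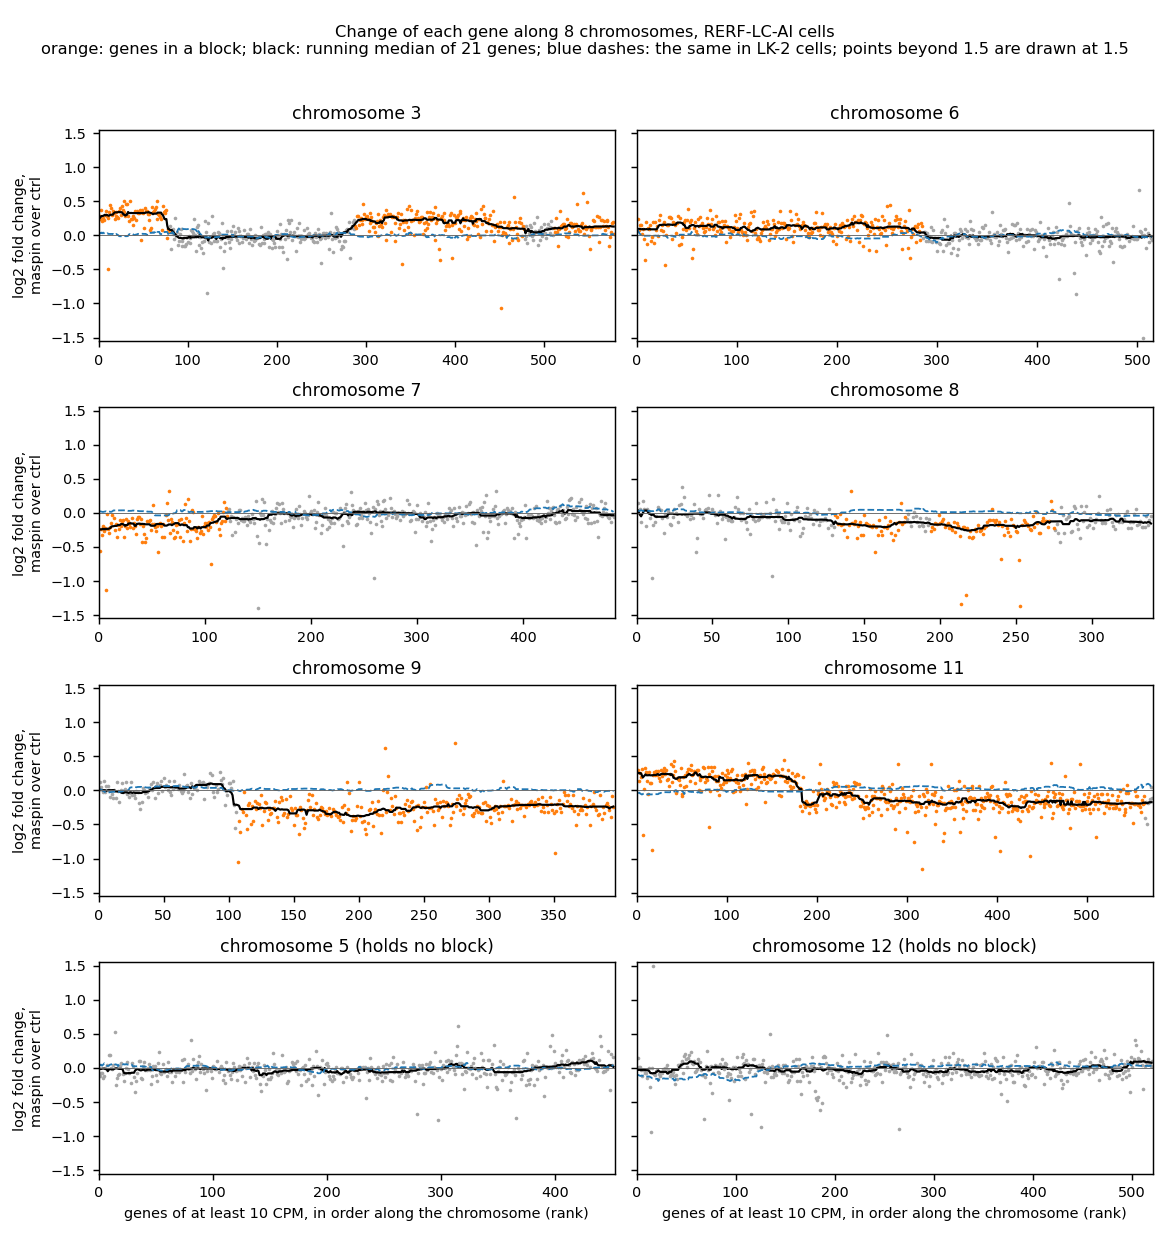
Log2 fold change, maspin over ctrl, of each gene with a mean of at least 10 CPM (y axis) against its rank along 8 chromosomes (x axis), with genes in a block in orange, the running median of 21 genes in black and the same running median in LK-2 cells as blue dashes. The black line leaves 0 in steps on chromosomes 3, 6, 7, 8, 9 and 11, most widely at the start of chromosome 3 (block median 0.32) and over the latter portion of chromosome 9 (-0.26), and stays near 0 on chromosomes 5 and 12. The blue line stays near 0 in the blocks and lies below 0 on chromosome 12 from 0 to 40 Mb, where the windows of LK-2 cells had medians from -0.18 to -0.11.

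The highest block median was that of chromosome 3 from 0 to 20 Mb. Of its 79 genes of at least 10 CPM, 76 had a log2 fold change above 0, the median was 0.32 (quartiles 0.25 and 0.36), and 87.3% passed the test, against 21.4% of all genes at this level. Its most abundant members were RPL32, a protein of the large ribosomal subunit, and NUP210, a protein of the nuclear pore. RPL32 measured 1364, 1392 and 1296 CPM in LC-AI-ctrl against 1607, 1833 and 1649 CPM in LC-AI-maspin libraries (log2 fold change 0.33 ± 0.05 (SE), adjusted p = 2.31e-05). NUP210 measured 941, 918 and 890.3 CPM in LC-AI-ctrl against 1175, 1271 and 1196 CPM in LC-AI-maspin libraries (log2 fold change 0.41 ± 0.05 (SE), adjusted p = 2.42e-07). ARPC4, a subunit of the actin-nucleating ARP2/3 complex, and ATG7, an enzyme of autophagy, lie in the same block and rose from 524 ± 21.4 to 631 ± 29.1 CPM and from 159 ± 3.04 to 204 ± 13.3 CPM (log2 fold changes ± SE 0.27 ± 0.05 and 0.36 ± 0.05). The window next to it, from 20 to 30 Mb, had a median of 0.03 over 13 genes, which is where the rule ended the block.

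Further along chromosome 3 the windows from 90 to 160 Mb had a median of 0.20 over 190 genes, of which 62.6% passed the test, and those from 180 to 200 Mb a median of 0.13 over 68 genes (30.9%). The first of them holds RPL24, another ribosomal protein, which rose from 575 ± 10.5 to 663 ± 19.2 CPM (log2 fold change 0.20 ± 0.04), and MCM2, a subunit of the replicative helicase, which rose from 285 ± 16.4 to 342 ± 28.1 CPM (0.26 ± 0.05). FSTL1, a secreted glycoprotein, went against its neighbours and measured 574, 594 and 609 CPM in LC-AI-ctrl against 419, 460.4 and 452 CPM in LC-AI-maspin libraries (log2 fold change -0.42 ± 0.05 (SE), adjusted p = 2.49e-07). Chromosome 6 from 0 to 60 Mb, which spans the major histocompatibility complex, had a median of 0.12 over 285 genes, of which 32.3% passed. HMGA1, a chromatin protein among its abundant members, rose from 844 ± 34.0 to 954 ± 45.4 CPM (0.18 ± 0.05), a call that was lost without LC-AI-ctrl replicate 3 (adjusted p = 0.169).

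Chromosome 11 changed sign. From 0 to 50 Mb 161 of 180 genes lay above 0, with a median of 0.20 and 57.8% passing the test, and from 50 to 130 Mb 336 of 384 genes lay below 0, with a median of -0.17 and 45.8% passing. The window from 40 to 50 Mb had a median of 0.21 and that from 50 to 60 Mb one of -0.21. On the rising side IPO7, which carries proteins into the nucleus, measured 1006, 1071 and 983 CPM in LC-AI-ctrl against 1220.3, 1336 and 1306 CPM in LC-AI-maspin libraries (log2 fold change 0.34 ± 0.05 (SE), adjusted p = 9.23e-06). On the falling side AHNAK, a giant scaffold protein, measured 2372, 2196 and 2398 CPM in LC-AI-ctrl against 1979.8, 1968 and 1957 CPM in LC-AI-maspin libraries (log2 fold change -0.24 ± 0.05 (SE), adjusted p = 0.000417). Cyclin D1, CCND1, which lies there too, fell from 323 ± 29.2 to 266 ± 16.7 CPM (log2 fold change -0.28 ± 0.06 (SE), adjusted p = 0.000706), and so did the transcription factor ETS1, from 423 ± 6.79 to 339.8 ± 18.9 CPM (-0.31 ± 0.05).

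Chromosome 9 from 70 to 140 Mb was the largest of the falling blocks by its median. Of its 290 genes 281 lay below 0, the median was -0.26 (quartiles -0.35 and -0.19), and 77.6% passed the test. RPL7A, a ribosomal protein, measured 1211, 1233 and 1257 CPM in LC-AI-ctrl against 986, 1025 and 979.9 CPM in LC-AI-maspin libraries (log2 fold change -0.31 ± 0.04 (SE), adjusted p = 1.1e-05). SET, a histone chaperone, fell from 974 ± 47.7 to 821 ± 20.8 CPM (-0.25 ± 0.05), and so did TUBB4B, a beta-tubulin, from 721 ± 33.7 to 539 ± 27.9 CPM (-0.42 ± 0.05). HSPA5, the main chaperone of the endoplasmic reticulum, lies in the block with a log2 fold change of 0.10 ± 0.04 that did not pass the test. The windows of chromosome 9 from 0 to 40 Mb had medians from -0.03 to 0.05, so that the shift was on the long arm.

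On chromosome 7 from 0 to 40 Mb 110 of 121 genes lay below 0 (median -0.18, 47.9% passing). The most abundant gene in these libraries from this block was ACTB, beta-actin, which measured 6369, 6489 and 6246 CPM in LC-AI-ctrl against 5468, 5872 and 5878 CPM in LC-AI-maspin libraries (log2 fold change -0.15 ± 0.04 (SE), adjusted p = 0.025). Its call was lost without any of LC-AI-ctrl replicates 1, 2 and 3 or LC-AI-maspin replicates 1 and 3 (adjusted p from 0.0666 to 0.119), while the median of the block lay between -0.16 and -0.13 against all genes in every fit tried. Chromosome 8 had falling blocks from 50 to 80 Mb (median -0.17, 47 genes, 55.3% passing) and from 90 to 130 Mb (-0.19, 82 genes, 61.0%), and its window from 140 to 150 Mb, which holds PTK2, stood at -0.12. PABPC1, the poly(A)-binding protein, measured 2033, 2078 and 2071 CPM in LC-AI-ctrl against 1739.8, 1801 and 1736 CPM in LC-AI-maspin libraries (log2 fold change -0.23 ± 0.04 (SE), adjusted p = 0.000422), and RAD21, a cohesin subunit, fell from 467 ± 11.1 to 388 ± 16.1 CPM (-0.26 ± 0.05).

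**Figure D2:**
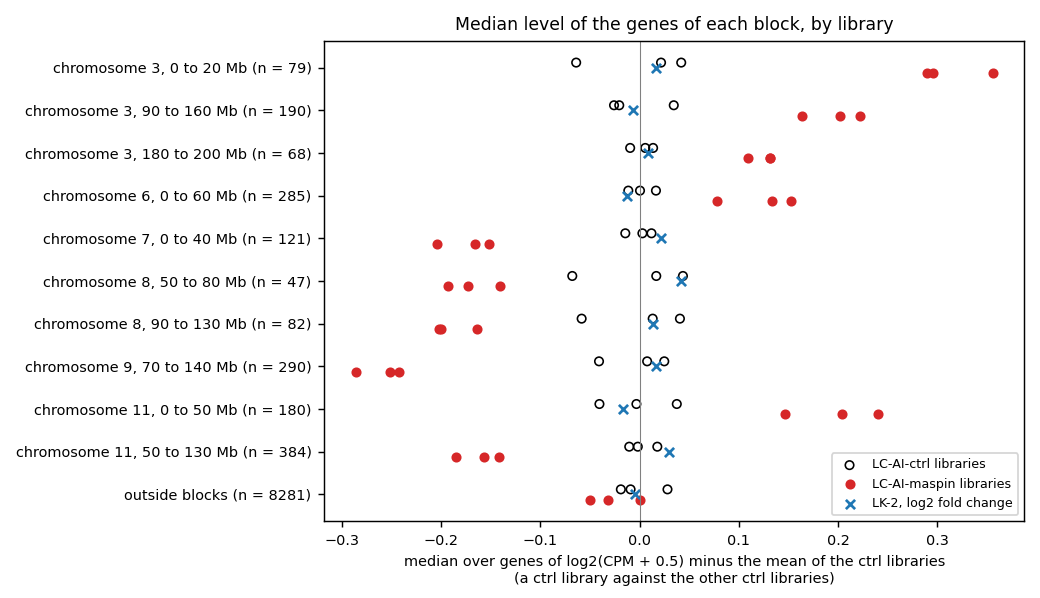
Median over the genes of each block of log2(CPM + 0.5) minus the mean of the LC-AI-ctrl libraries (x axis), for each block (y axis, with its number of genes of at least 10 CPM), with open circles for LC-AI-ctrl libraries, each set against the other LC-AI-ctrl libraries, red circles for LC-AI-maspin libraries and crosses for the median log2 fold change in LK-2 cells. In all 10 blocks the 3 red circles lie beyond the 3 open ones, for chromosome 9 from 70 to 140 Mb at -0.25, -0.24 and -0.29 against -0.04, 0.03 and 0.01, and the crosses lie between -0.02 and 0.04.

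Each of the 3 LC-AI-maspin libraries showed each shift. For chromosome 3 from 0 to 20 Mb the median of its genes stood at 0.04, 0.02 and -0.06 in the LC-AI-ctrl libraries and at 0.29, 0.36 and 0.30 in the LC-AI-maspin libraries on the scale of log2(CPM + 0.5) against the other control libraries. In LK-2 cells, whose libraries the rule did not use, the same 10 blocks had median log2 fold changes from -0.02 to 0.04. Genes in the blocks are 16.7% of the genes tested and made up 39.5% of those that passed (1050 of 2655). They were 43.0% of the genes that passed with less than a 1.5-fold change and 25 of the 119 over 2-fold. Outside the blocks 1605 genes passed, 557 higher and 1048 lower, which is 7.65% of the genes tested there. Most genes named from here on that lie in a block are said to do so. Named genes were those with the largest changes or levels under the rule given in the processing section, and ARPC4, ASNS, ATF4, CCN2, CHAC1, DDIT3, HMGA1, HSPA5, IPO7, KIF4A, MKI67, NUP210, PLK1, RAD21, RPL24, SET, TEAD4 and YAP1, like most of the ribosomal proteins named below, were chosen after their values were seen.

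Some lists of genes had most of their calls in the blocks. The counts of list members here and below stand against 10.5% of all genes tested that passed, and 21.4% of those of at least 10 CPM. Small counts varied with single libraries, since of 40 counts of 2 to 4 members in a direction 25 moved by over 1.5 times when some library was left out. Of 79 proteins of the cytosolic ribosome tested, 6 rose and 9 fell, and 14 of these 15 lie in a block. RPL32, RPL24, RPL35A, RPL27A, RPLP2 and RPS13 rose from chromosomes 3 and 11, while RPL7A, RPL35 and RPL12 fell from chromosome 9, RPL7, RPS20 and RPL30 from chromosome 8, and RPS3 and RPS25 from chromosome 11. The list split by position and not by ribosomal subunit, and its median, -0.05, was close to that of all genes tested, 0.01. Without LC-AI-maspin replicate 2 the falling members numbered 14. The nuclear-encoded subunits of the respiratory complexes had 2 higher and 11 lower of 76 tested, with 10 of 13 in a block, such as NDUFA8 (-0.37 ± 0.05), a subunit of complex I, from chromosome 9 and COX8A (-0.27 ± 0.05), a subunit of complex IV, from chromosome 11. Without LC-AI-ctrl replicate 3 or LC-AI-maspin replicate 3 the falling subunits numbered 7 and 6.

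Autophagy genes had 12 higher and 5 lower of 56 tested, with 9 of the 17 in a block. In blocks were ATG7 and ATG13, which begins autophagosome formation and rose from 60.4 ± 0.722 to 74.7 ± 2.12 CPM (0.31 ± 0.05). Outside lay the cargo receptor SQSTM1, which measured 615, 547 and 556 CPM in LC-AI-ctrl against 901, 778 and 706 CPM in LC-AI-maspin libraries (log2 fold change 0.47 ± 0.06 (SE), adjusted p = 2.78e-06), and the starting kinase ULK1, which rose from 45.4 ± 4.47 to 57.5 ± 1.87 CPM (0.34 ± 0.06). The lysosomal genes had 5 higher and 4 lower of 65 tested, with 8 of 9 in a block, such as the protease cathepsin D, CTSD, on the rising portion of chromosome 11 (0.27 ± 0.05). The falling autophagy genes numbered 2 without LC-AI-ctrl replicate 3 or LC-AI-maspin replicate 3, and the rising lysosomal genes 2 without LC-AI-ctrl replicate 3 and 3 without LC-AI-maspin replicate 2. Of 36 genes of Rap1 signalling tested 4 passed (11.1%), near the 10.5% of all genes tested. All 4 fell and lie in blocks, with SIPA1, which switches Rap1 off, at 39.2, 33.0 and 38.7 CPM in LC-AI-ctrl against 25.1, 23.6 and 23.8 CPM in LC-AI-maspin libraries (log2 fold change -0.61 ± 0.07 (SE), adjusted p = 1.49e-07) and VAV2, an exchange factor for small GTPases, at -0.32 ± 0.06. Of 11 histone deacetylases tested, HDAC11 rose from chromosome 3 from 33.4 ± 2.24 to 43.0 ± 0.138 CPM (0.36 ± 0.06), HDAC9 rose against its neighbours on chromosome 7 (0.32 ± 0.08), and HDAC1, which lies in no block, fell from 154 ± 2.60 to 139 ± 4.66 CPM (log2 fold change -0.15 ± 0.05 (SE), adjusted p = 0.0372). The call of HDAC1 was lost without LC-AI-ctrl replicate 1, 2 or 3 or LC-AI-maspin replicate 1 or 3 (adjusted p from 0.0548 to 0.196), and that of HDAC9 without LC-AI-ctrl replicate 3 or LC-AI-maspin replicate 1 (0.0539 and 0.0957).

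**Figure D3:**
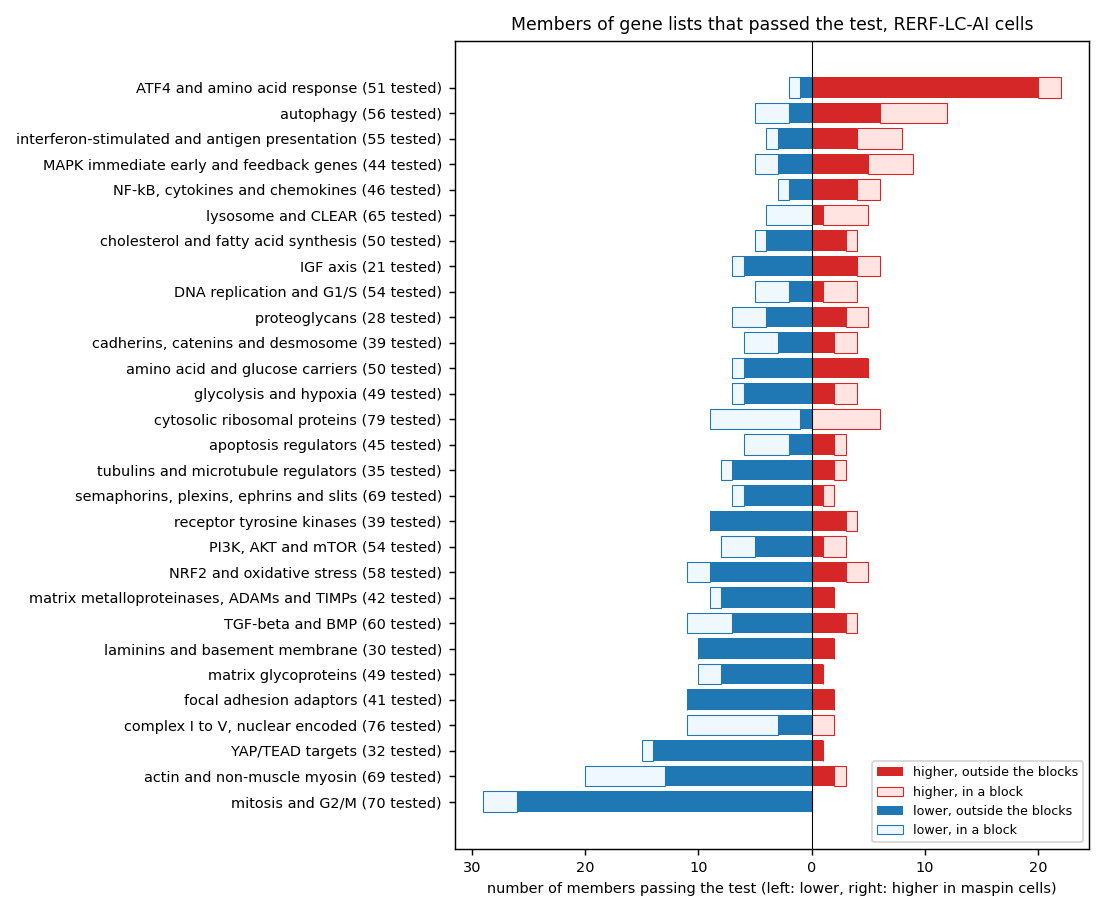
Number of members of each gene list that passed the test (x axis, lower to the left and higher to the right), for lists with at least 9 such members (y axis, with the number tested), with those outside the chromosome blocks in full colour and those inside in pale colour. Mitosis (29 lower) and YAP/TEAD targets (15 lower, 1 higher) lean to the left and ATF4 and amino acid genes (22 higher, 2 lower) to the right, mostly in full colour, while the calls of ribosomal proteins are pale.

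Among the large changes outside the blocks were genes with no common role. ZNF784, a zinc finger gene, measured 26.2, 29.5 and 30.9 CPM in LC-AI-ctrl against 7.42, 6.98 and 7.45 CPM in LC-AI-maspin libraries (log2 fold change -1.99 ± 0.08 (SE), adjusted p = 7.95e-17). IGFBP7, a secreted binding protein of insulin-like growth factors, measured 14.8, 14.2 and 12.6 CPM in LC-AI-ctrl against 5.73, 4.96 and 4.06 CPM in LC-AI-maspin libraries (log2 fold change -1.502 ± 0.11 (SE), adjusted p = 7.82e-11). MYPN, which binds actin in muscle, fell from 6.87 ± 1.57 to 2.56 ± 0.630 CPM (-1.43 ± 0.17). In these 3 genes every LC-AI-maspin library lay below every LC-AI-ctrl library by a wide margin. POF1B, an actin-binding protein of epithelia, measured 0.580, 0.572 and 0.541 CPM in LC-AI-ctrl against 1.99, 2.28 and 2.45 CPM in LC-AI-maspin libraries (log2 fold change 1.99 ± 0.22 (SE), adjusted p = 1.46e-07). RAB39B, a small GTPase of vesicle traffic, rose from 3.13 ± 0.809 to 8.42 ± 0.953 CPM (1.43 ± 0.14), and GDF15, a stress-induced cytokine, measured 11.1, 5.15 and 6.00 CPM in LC-AI-ctrl against 16.3, 14.2 and 14.8 CPM in LC-AI-maspin libraries (log2 fold change 1.03 ± 0.15 (SE), adjusted p = 2.45e-05). These rises were of genes that stayed under 20 CPM in every library.

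YAP/TEAD targets were lower in LC-AI-maspin cells. Of 32 targets and partners tested, 15 fell (46.9%) and 1 rose, 14 of the 15 falling members lie in no block, and the median over the members outside the blocks was -0.22, against 0.01 for all genes tested. Among all genes tested 6.53% fell, and among those of at least 10 CPM 1393 of 10007 did. The median level of these members, relative to the control libraries, stood at -0.00068, -0.01 and -0.01 in the LC-AI-ctrl libraries and at -0.21, -0.23 and -0.18 in the LC-AI-maspin libraries, so that the groups did not overlap. CAVIN2, a coat protein of caveolae, measured 182, 178 and 190.3 CPM in LC-AI-ctrl against 114, 114 and 108 CPM in LC-AI-maspin libraries (log2 fold change -0.71 ± 0.05 (SE), adjusted p = 8.17e-12). F3, the tissue factor that starts blood clotting, measured 28.8, 33.3 and 29.1 CPM in LC-AI-ctrl against 14.8, 13.7 and 11.7 CPM in LC-AI-maspin libraries (log2 fold change -1.19 ± 0.08 (SE), adjusted p = 1.12e-11). ANKRD1, a muscle ankyrin protein often used as a readout of YAP, measured 86.3, 99.3 and 99.5 CPM in LC-AI-ctrl against 58.7, 65.8 and 62.9 CPM in LC-AI-maspin libraries (log2 fold change -0.60 ± 0.06 (SE), adjusted p = 9.27e-09). All 3 were lower in every LC-AI-maspin library. CRIM1, a membrane protein that binds bone morphogenetic proteins, fell from 329.7 ± 8.99 to 243 ± 13.6 CPM (-0.44 ± 0.05), and LATS2, the kinase that restrains YAP, fell from 102 ± 6.61 to 78.2 ± 2.51 CPM (-0.39 ± 0.05). AXL, a receptor tyrosine kinase, fell from 920.5 ± 4.71 to 789.8 ± 43.3 CPM (-0.22 ± 0.05). CCN1 and CCN2, of which the latter encodes connective tissue growth factor, are the best known targets. They had log2 fold changes of -0.12 ± 0.05 (adjusted p = 0.107) and -0.13 ± 0.06 (adjusted p = 0.196) and did not pass. YAP1 fell from 217 ± 3.65 to 185 ± 2.09 CPM and TEAD4 from 46.3 ± 2.36 to 38.3 ± 1.27 CPM (log2 fold changes -0.23 ± 0.04 and -0.27 ± 0.06), and YAP1 lies in the falling block of chromosome 11. The falling members numbered 14 to 16 when any library was left out.

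The letters GGAATG, or CATTCC on the other strand, which TEAD factors are known to bind, stood within 250 bases before the start of 5 of 13 members that passed and had a promoter in the RefSeq table (38.5%), in 3 of 10 that did not (30%), and in 10.7% of 17696 promoters of genes tested. Members that passed and members that did not thus held it at a like share, and a match is a description of letters, not of a bound site. Matches in 3 members that fell are shown with their surroundings, 5′ to 3′ on the strand of the gene, GRCh38.p14, with the match in capitals.
CAVIN2, chr2:191847089-191847124, minus strand: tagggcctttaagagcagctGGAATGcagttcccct
ANKRD1, chr10:90921190-90921235, minus strand: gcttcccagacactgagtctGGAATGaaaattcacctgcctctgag
TGFB2, chr1:218345131-218345176, plus strand: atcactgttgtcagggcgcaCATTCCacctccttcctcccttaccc

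Genes of focal adhesions and the actin skeleton fell more often than they rose, and so did all genes. Of all genes tested 6.53% fell and 4.01% rose, and of the 10007 genes of at least 10 CPM 1393 fell and 745 rose. Among 41 adaptors of focal adhesions tested, 11 fell (26.8%) and 2 rose (4.88%), and all 13 lie outside the blocks. TNS3, which links integrins to actin, measured 249, 209 and 254 CPM in LC-AI-ctrl against 171, 177 and 174 CPM in LC-AI-maspin libraries (log2 fold change -0.45 ± 0.06 (SE), adjusted p = 1.29e-06). FLNC, a filamin that crosslinks actin, measured 636, 747 and 674 CPM in LC-AI-ctrl against 541, 533 and 514 CPM in LC-AI-maspin libraries (log2 fold change -0.37 ± 0.05 (SE), adjusted p = 5.61e-06), and caveolin, CAV1, fell from 422 ± 15.02 to 348 ± 12.9 CPM (-0.28 ± 0.05). ACTN4, an alpha-actinin, fell from 618 ± 4.34 to 519 ± 10.5 CPM (-0.25 ± 0.04). These are abundant genes whose falls were small, with no overlap between the groups. Of 69 genes of actin and non-muscle myosin tested, 20 fell (29.0%) and 3 rose (4.35%), 13 and 2 of them outside the blocks. RAC2, a small GTPase, fell most, at 19.4, 17.8 and 16.7 CPM in LC-AI-ctrl against 10.97, 9.18 and 7.81 CPM in LC-AI-maspin libraries (log2 fold change -0.95 ± 0.10 (SE), adjusted p = 5.19e-08), TMSB4X, which holds actin monomers, measured 1536, 1538 and 1557 CPM in LC-AI-ctrl against 1133, 1150.3 and 1226 CPM in LC-AI-maspin libraries (log2 fold change -0.40 ± 0.04 (SE), adjusted p = 2.21e-07), and PALLD, a scaffold of actin bundles, fell from 129 ± 7.87 to 98.97 ± 6.44 CPM (-0.38 ± 0.05). MYH14, a non-muscle myosin chain, rose from 3.65 ± 0.200 to 5.46 ± 0.3904 CPM (0.58 ± 0.13). Without LC-AI-maspin replicate 3 the falling members of the actin list numbered 12, and with all 12 libraries in 1 fit 8 actin genes and 4 focal adhesion adaptors fell. The rising focal adhesion adaptors numbered 8 with library size alone and 4 without LC-AI-maspin replicate 1.

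**Figure D4:**
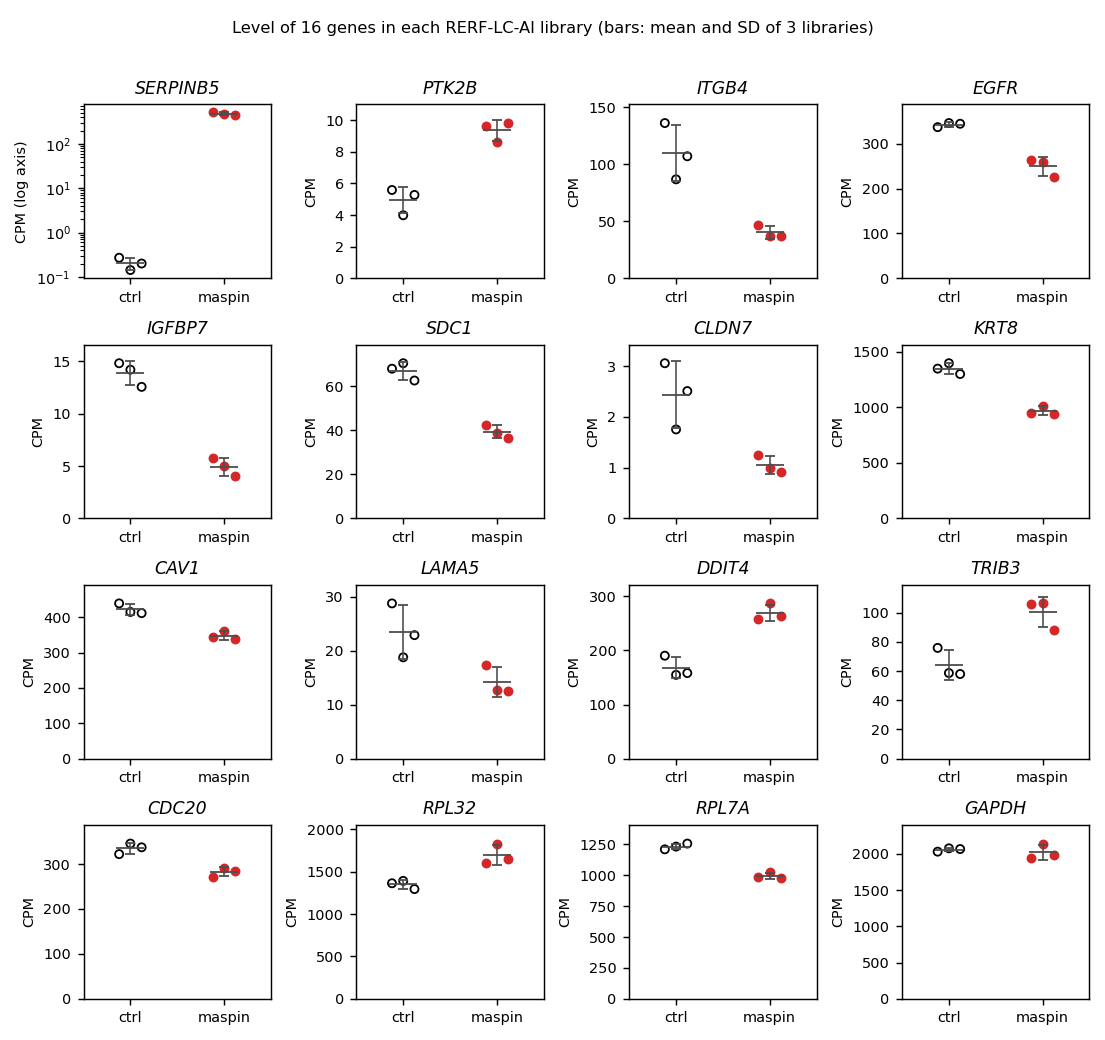
Level in CPM (y axis, a log axis for SERPINB5) of 16 genes in each LC-AI-ctrl library (open circles) and LC-AI-maspin library (red circles), with bars for the mean and SD of 3 libraries. The circles of the groups do not overlap in any panel but that of GAPDH, whose log2 fold change was -0.03, and the gap is wide for ITGB4 (from 110.1 ± 24.8 to 40.2 ± 5.33 CPM) and small against the level for RPL32, RPL7A and CDC20.

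Of 20 integrins tested, 2 fell and 1 rose, which is 15% of them. The share that passed was 10.5% among all genes tested and 21.4% among those of at least 10 CPM. ITGB4, the beta subunit of the laminin receptor of hemidesmosomes, measured 136, 86.9 and 107 CPM in the LC-AI-ctrl libraries and 46.3, 36.8 and 37.5 CPM in the LC-AI-maspin libraries (log2 fold change -1.46 ± 0.10 (SE), adjusted p = 9.51e-12), and although the control libraries varied widely, all 3 lay above the LC-AI-maspin libraries. ITGB5, in the rising block of chromosome 3, rose from 70.9 ± 4.47 to 85.8 ± 2.99 CPM (0.28 ± 0.05). ITGA4 fell from 9.46 ± 0.896 to 7.41 ± 0.258 CPM (log2 fold change -0.35 ± 0.10 (SE), adjusted p = 0.0196), but its call was lost without LC-AI-ctrl replicate 2 or 3 or any of the LC-AI-maspin replicates (adjusted p from 0.0540 to 0.133). Laminins, the ligands of ITGB4, and other basement membrane genes had 10 lower and 2 higher of 30 tested, none of them in a block, with a median of -0.12. LAMB1 measured 86.5, 93.4 and 83.7 CPM in LC-AI-ctrl against 60.4, 66.0 and 62.7 CPM in LC-AI-maspin libraries (log2 fold change -0.48 ± 0.05 (SE), adjusted p = 1.65e-07). LAMA5 measured 28.8, 18.8 and 22.9 CPM in LC-AI-ctrl against 17.4, 12.7 and 12.5 CPM in LC-AI-maspin libraries (log2 fold change -0.73 ± 0.11 (SE), adjusted p = 3.77e-05), and COL18A1, a basement membrane collagen, fell from 186 ± 11.2 to 143 ± 9.42 CPM (-0.38 ± 0.05). LAMB3, another laminin chain, rose from 40.0 ± 0.890 to 52.1 ± 3.55 CPM (0.38 ± 0.06). In 1 fit of all 12 libraries 5 members of the list fell.

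In the remaining matrix lists more members fell than rose, as among all genes of at least 10 CPM, of which 1393 of 10007 fell and 745 rose. Of 49 matrix glycoproteins tested 10 fell and 1 rose, of 34 collagens outside type IV 6 fell and 2 rose, and of 25 enzymes that process or crosslink collagen 6 fell and 2 rose, neither of which passed without LC-AI-ctrl replicate 3 or LC-AI-maspin replicate 2 or 3. With all 12 libraries in 1 fit 1 of these enzymes fell. FBLN1, a fibulin of elastic fibres, measured 353, 344 and 342 CPM in LC-AI-ctrl against 252, 249.8 and 240.5 CPM in LC-AI-maspin libraries (log2 fold change -0.48 ± 0.04 (SE), adjusted p = 8.18e-09). MATN2, a matrilin, measured 78.4, 90.5 and 94.6 CPM in LC-AI-ctrl against 38.8, 39.0 and 36.6 CPM in LC-AI-maspin libraries (log2 fold change -1.20 ± 0.06 (SE), adjusted p = 1.04e-14) and lies in the falling block of chromosome 8, whose median it exceeded. TGM2, which crosslinks matrix proteins, fell from 939 ± 74.2 to 619 ± 40.3 CPM (-0.60 ± 0.05), and LOXL2, a lysyl oxidase, fell from 169 ± 9.77 to 129 ± 4.40 CPM (-0.39 ± 0.05). COL5A1, in the block of chromosome 9, fell from 16.3 ± 1.62 to 8.60 ± 0.709 CPM (-0.92 ± 0.09) and COL1A2 fell from 29.6 ± 7.76 to 15.3 ± 1.27 CPM (-0.96 ± 0.11), whereas COL6A1 and COL6A2, which are neighbours, rose from 233 ± 30.3 to 283 ± 18.2 CPM and from 184 ± 28.5 to 244 ± 19.5 CPM (0.28 ± 0.06 and 0.40 ± 0.07). Without LC-AI-ctrl replicate 3 the call of COL6A1 was lost (adjusted p = 0.0704).

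Proteoglycans had 7 lower and 5 higher of 28 tested, with 3 higher without LC-AI-ctrl replicate 3 or LC-AI-maspin replicate 2. Syndecan 1, SDC1, a heparan sulfate carrier of the cell surface, measured 68.0, 70.5 and 62.6 CPM in LC-AI-ctrl against 42.6, 38.9 and 36.6 CPM in LC-AI-maspin libraries (log2 fold change -0.77 ± 0.06 (SE), adjusted p = 1.79e-10). Syndecan 2, SDC2, in the block of chromosome 8, measured 42.3, 43.5 and 48.3 CPM in LC-AI-ctrl against 20.8, 16.3 and 16.2 CPM in LC-AI-maspin libraries (log2 fold change -1.34 ± 0.08 (SE), adjusted p = 4.32e-13), and EXT1, which builds heparan sulfate chains and lies in the same block, fell from 133 ± 3.96 to 82.3 ± 5.44 CPM (-0.69 ± 0.05). NDST1, which sulfates them, fell from 341 ± 9.08 to 281 ± 18.2 CPM (-0.28 ± 0.05). Of 42 metalloproteinases, ADAMs and their inhibitors tested, 9 fell and 2 rose. ADAM19 fell from 30.4 ± 4.76 to 18.2 ± 1.54 CPM (-0.74 ± 0.09), MMP14, a membrane-bound collagenase, fell from 132 ± 12.8 to 105 ± 6.03 CPM (-0.34 ± 0.06), and the inhibitor TIMP2 fell from 308 ± 10.4 to 241 ± 7.57 CPM (-0.35 ± 0.05), so that proteases and an inhibitor fell together. MMP17 rose from 11.9 ± 1.59 to 15.8 ± 1.42 CPM (0.41 ± 0.09).

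Receptors of growth factors moved in both directions. Of 39 receptor tyrosine kinases tested 9 fell and 4 rose (33.3% in all). In the lists of EGF ligands, of VEGF, PDGF and FGF ligands and of MAPK genes below, 27.3%, 23.1% and 31.8% passed. Of all genes of at least 10 CPM 21.4% passed, and of all genes tested 10.5%. EGFR, the receptor of epidermal growth factor, measured 337, 346 and 345 CPM in LC-AI-ctrl against 264, 259 and 226 CPM in LC-AI-maspin libraries (log2 fold change -0.46 ± 0.05 (SE), adjusted p = 2.41e-07). FGFR3, a receptor of fibroblast growth factors, fell from 8.01 ± 1.63 to 5.02 ± 0.345 CPM (-0.68 ± 0.13), and EPHB2, an ephrin receptor, fell from 13.8 ± 0.498 to 10.2 ± 1.28 CPM (-0.44 ± 0.09). Among ligands of the EGF family EREG rose from 9.42 ± 0.633 to 13.6 ± 0.955 CPM (0.53 ± 0.09), and NRG1, which acts on ERBB receptors, measured 19.1, 21.3 and 22.6 CPM in LC-AI-ctrl against 11.9, 10.7 and 10.6 CPM in LC-AI-maspin libraries (log2 fold change -0.93 ± 0.08 (SE), adjusted p = 2.95e-09). Of 26 ligands of the VEGF, PDGF and FGF families 5 fell and 1 rose, among them PDGFB, at 9.51, 7.04 and 9.40 CPM in LC-AI-ctrl against 4.01, 3.43 and 3.71 CPM in LC-AI-maspin libraries (log2 fold change -1.22 ± 0.13 (SE), adjusted p = 5.89e-08), and FGF2, which fell from 191 ± 9.48 to 155 ± 5.68 CPM (-0.30 ± 0.05). VEGFA, in the rising block of chromosome 6, measured 91.8, 79.0 and 83.1 CPM in LC-AI-ctrl against 116, 116 and 115 CPM in LC-AI-maspin libraries (log2 fold change 0.45 ± 0.05 (SE), adjusted p = 3.55e-07) and exceeded the shift of its block. Feedback genes of the MAPK pathway had 9 higher and 5 lower of 44 tested, 6 of these 14 in blocks. ETV4 and ETV5, ETS factors that follow ERK activity, rose from 24.1 ± 1.08 to 34.9 ± 0.649 CPM and from 106 ± 6.04 to 146 ± 5.75 CPM (0.53 ± 0.06 and 0.46 ± 0.05), and ERRFI1, which restrains EGFR, rose from 209 ± 9.89 to 259.6 ± 4.65 CPM (0.31 ± 0.05), while JUN fell from 191 ± 4.28 to 156 ± 9.25 CPM (-0.29 ± 0.05). ETV5 lies in a rising block of chromosome 3. Without LC-AI-ctrl replicate 3 the rising members of the MAPK list numbered 3, without LC-AI-maspin replicate 3 its falling members numbered 3, and without LC-AI-ctrl replicate 3 or LC-AI-maspin replicate 2 the rising receptors numbered 2.

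The axis of insulin-like growth factors had the highest share of changed members among lists of more than 20 genes, with 7 lower and 6 higher of 21 tested. IGFBP3, its main carrier in blood, measured 1002, 1445 and 1442 CPM in LC-AI-ctrl against 429, 509 and 546 CPM in LC-AI-maspin libraries (log2 fold change -1.39 ± 0.09 (SE), adjusted p = 3.35e-12). IGFBP4 fell from 74.8 ± 12.6 to 43.5 ± 4.44 CPM (-0.79 ± 0.08), and IRS1, the docking protein of the receptors, measured 61.8, 55.7 and 59.3 CPM in LC-AI-ctrl against 36.4, 40.1 and 37.5 CPM in LC-AI-maspin libraries (log2 fold change -0.63 ± 0.06 (SE), adjusted p = 4.03e-09). PAPPA2, a protease that cleaves binding proteins, rose from 14.2 ± 3.25 to 26.4 ± 1.59 CPM (0.89 ± 0.10). The list thus moved in both directions. The rising members numbered 2 or 3 without LC-AI-ctrl replicate 2 or 3 or any of the LC-AI-maspin replicates, and the falling members 4 without LC-AI-maspin replicate 3. In the TGF-beta and BMP pathway 11 fell and 4 rose (2 without LC-AI-ctrl replicate 3) of 60 tested. ENG, a coreceptor in the block of chromosome 9, measured 168, 172 and 165 CPM in LC-AI-ctrl against 116, 123 and 116 CPM in LC-AI-maspin libraries (log2 fold change -0.51 ± 0.05 (SE), adjusted p = 6.76e-09), TGFBR3, another coreceptor, fell from 75.9 ± 5.70 to 55.4 ± 4.08 CPM (-0.45 ± 0.06), the ligand TGFB2 fell from 96.6 ± 5.58 to 78.5 ± 5.87 CPM (-0.30 ± 0.06) and the inhibitor SMAD6 fell from 29.4 ± 3.08 to 19.9 ± 1.69 CPM (-0.56 ± 0.08).

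Some keratins and other epithelial genes fell. Of 16 keratins tested 5 fell and 1 rose, and of 11 epithelial markers 4 fell, all outside the blocks. KRT8 measured 1347, 1395 and 1298 CPM in LC-AI-ctrl against 948, 1015 and 941 CPM in LC-AI-maspin libraries (log2 fold change -0.48 ± 0.05 (SE), adjusted p = 1.79e-08). KRT18, its partner in simple epithelia, measured 575, 559.7 and 543 CPM in LC-AI-ctrl against 421, 428 and 403 CPM in LC-AI-maspin libraries (log2 fold change -0.42 ± 0.05 (SE), adjusted p = 1.15e-07), and KRT7 fell from 216 ± 11.8 to 159 ± 4.005 CPM (-0.44 ± 0.05). The groups did not overlap in any of these. CLDN7, a tight junction protein, measured 3.05, 1.75 and 2.51 CPM in LC-AI-ctrl against 1.25, 0.985 and 0.916 CPM in LC-AI-maspin libraries (log2 fold change -1.22 ± 0.21 (SE), adjusted p = 0.00018), whereas CLDN1, in the rising block of chromosome 3, rose from 172 ± 5.46 to 240.0 ± 15.2 CPM (0.48 ± 0.05). Desmosomal genes split, with PKP2 at -0.68 ± 0.07 and DSP at -0.43 ± 0.07 lower and DSC2 at 0.65 ± 0.12 and DSG2 at 0.24 ± 0.05 higher. DSP lies in the rising block of chromosome 6 and went against its neighbours. S100 proteins had 5 lower of 12 tested, such as S100A10, the partner of annexin A2, at 411, 399.9 and 401 CPM in LC-AI-ctrl against 276, 304 and 298 CPM in LC-AI-maspin libraries (log2 fold change -0.46 ± 0.05 (SE), adjusted p = 3.7e-08), and S100A4 (-0.50 ± 0.07). Annexin A2 itself, ANXA2, fell from 1589 ± 32.1 to 1317 ± 72.1 CPM (-0.27 ± 0.05). Of 17 mesenchymal markers 3 fell and 1 rose, and of 26 factors and markers of the epithelial-mesenchymal transition 1 rose, so that few genes of either list passed. VIM had a log2 fold change of -0.10 ± 0.05 (adjusted p = 0.222).

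Genes driven by ATF4, the factor of amino acid shortage and the integrated stress response, were higher in LC-AI-maspin cells. Of 51 tested 22 rose (43.1%) and 2 fell, 20 of the rising ones outside the blocks, with a median of 0.14, against 0.01 for all genes tested. Among all genes tested 4.01% rose, and among those of at least 10 CPM 745 of 10007 did. DDIT4, an inhibitor of mTOR signalling, measured 190.3, 155 and 158 CPM in LC-AI-ctrl against 258, 287 and 263 CPM in LC-AI-maspin libraries (log2 fold change 0.68 ± 0.06 (SE), adjusted p = 2.74e-09). TRIB3, a pseudokinase induced under stress, measured 75.9, 58.7 and 58.0 CPM in LC-AI-ctrl against 106, 106 and 88.3 CPM in LC-AI-maspin libraries (log2 fold change 0.64 ± 0.08 (SE), adjusted p = 4.78e-07). SESN2, which senses leucine, rose from 59.1 ± 5.76 to 89.1 ± 10.5 CPM (0.59 ± 0.07), and STC2, a secreted glycoprotein, rose from 362 ± 14.6 to 508 ± 31.5 CPM (0.49 ± 0.05). The groups did not overlap in these 4 genes. DDIT3, which encodes the factor CHOP, rose from 23.4 ± 1.27 to 32.7 ± 3.70 CPM (0.48 ± 0.07), and CHAC1, which breaks down glutathione, rose from 52.6 ± 3.87 to 69.6 ± 2.94 CPM (0.40 ± 0.06). SLC7A11, the cystine carrier, rose from 338 ± 13.6 to 393 ± 24.9 CPM (0.22 ± 0.05), while PSAT1, an enzyme of serine synthesis in the block of chromosome 9, fell from 354 ± 22.5 to 297 ± 11.9 CPM (-0.25 ± 0.05). The transcript of ATF4 itself had a log2 fold change of 0.13 ± 0.04 (adjusted p = 0.067). The median level of the members outside the blocks stood at 0.09, -0.07 and -0.02 in the LC-AI-ctrl libraries and at 0.12, 0.21 and 0.11 in the LC-AI-maspin libraries, a narrow gap. From 17 to 27 members rose when any library was left out, and 12 in 1 fit of all 12 libraries.

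The element TGATGNAA, searched on both strands, which ATF4 and its partners of the C/EBP family bind together, stood within 250 bases before the start of 2 of 20 rising or falling members with a promoter (10%), of 1 of 21 other members (4.76%) and of 2.24% of all 17696 promoters. The matches in both members that passed are shown in capitals, on the strand of the gene. CHAC1 holds it on the opposite strand and ASNS, the enzyme that makes asparagine, which rose from 247 ± 15.8 to 279 ± 11.1 CPM (0.18 ± 0.05), on its own. The call of ASNS was lost without LC-AI-ctrl replicate 2 or 3 or LC-AI-maspin replicate 2 (adjusted p from 0.0922 to 0.126).
CHAC1, chr15:40953242-40953289, plus strand: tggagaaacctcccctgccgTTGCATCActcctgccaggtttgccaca
ASNS, chr7:97872449-97872496, minus strand: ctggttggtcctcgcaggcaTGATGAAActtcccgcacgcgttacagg

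The unfolded protein response, a neighbour of this pathway, had 6 higher and 2 lower of 35 tested, and 2 or 3 higher without LC-AI-ctrl replicate 1 or 3 or LC-AI-maspin replicate 2 or 3. HERPUD1, of the degradation of misfolded proteins, rose from 129 ± 4.84 to 152 ± 11.2 CPM (0.24 ± 0.05), and EDEM1, in the block of chromosome 3, rose from 257 ± 10.4 to 312 ± 6.56 CPM (0.28 ± 0.05). Cytosolic heat shock genes had 7 lower and 1 higher of 36, such as HSPH1, which fell from 398 ± 9.28 to 333 ± 6.36 CPM (-0.26 ± 0.04). Genes of the antioxidant factor NRF2 had 11 lower and 5 higher of 58, with HMOX1, which breaks down heme, higher at 47.5, 58.8 and 52.8 CPM in LC-AI-ctrl against 69.9, 84.8 and 66.8 CPM in LC-AI-maspin libraries (log2 fold change 0.48 ± 0.07 (SE), adjusted p = 2.54e-05), the quinone reductase NQO1 lower (-0.21 ± 0.04) and the peroxiredoxin PRDX2 lower at 69.1, 65.1 and 62.9 CPM in LC-AI-ctrl against 46.6, 47.3 and 40.7 CPM in LC-AI-maspin libraries (log2 fold change -0.55 ± 0.06 (SE), adjusted p = 9.12e-08). More genes of ATF4 and of the unfolded protein response rose than fell, and more heat shock and NRF2 genes fell than rose. Among all genes that passed, 62.0% were lower. Of 49 genes of glycolysis and hypoxia 7 fell and 4 rose, with the lactate carrier SLC16A3 at 184, 174 and 165 CPM in LC-AI-ctrl against 115, 106 and 112 CPM in LC-AI-maspin libraries (log2 fold change -0.65 ± 0.05 (SE), adjusted p = 1.96e-10) and the peptide hormone ADM, on the rising portion of chromosome 11, falling from 127 ± 15.8 to 87.5 ± 1.28 CPM (-0.53 ± 0.06).

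Mitotic genes were slightly lower. Of 70 genes of mitosis and the G2/M phase tested, 29 fell (41.4%), 26 of them outside the blocks, 67 had a negative log2 fold change and the median was -0.14. Among all genes tested 6.53% fell, and among those of at least 10 CPM 1393 of 10007 did. CDC20, which activates the anaphase-promoting complex, measured 322, 346 and 337 CPM in LC-AI-ctrl against 271, 292 and 286 CPM in LC-AI-maspin libraries (log2 fold change -0.24 ± 0.05 (SE), adjusted p = 0.000511). KIF14, a mitotic kinesin, fell from 115 ± 4.34 to 98.3 ± 3.82 CPM (-0.23 ± 0.05), and CKAP2, a protein of the spindle, fell from 198 ± 12.996 to 163 ± 12.6 CPM (-0.29 ± 0.05). The proliferation marker MKI67 (-0.10 ± 0.05) and the mitotic kinase PLK1 (-0.06 ± 0.05) did not pass. CKS2 and ANLN fell more, -0.46 ± 0.05 and -0.32 ± 0.05, and lie in the blocks of chromosomes 9 and 7. The count depended on single libraries, with 13 members lower without LC-AI-ctrl replicate 2, 13 without LC-AI-ctrl replicate 3, 10 without LC-AI-maspin replicate 1 and 18 without LC-AI-maspin replicate 3, and 8 in 1 fit of all 12 libraries. The median level of the members outside the blocks stood at -0.12, 0.11 and 0.00 in the LC-AI-ctrl and at -0.24, -0.06 and -0.11 in the LC-AI-maspin libraries. The ranges of the groups overlapped, while each LC-AI-maspin library lay below the LC-AI-ctrl library of the same number.

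**Figure D5:**
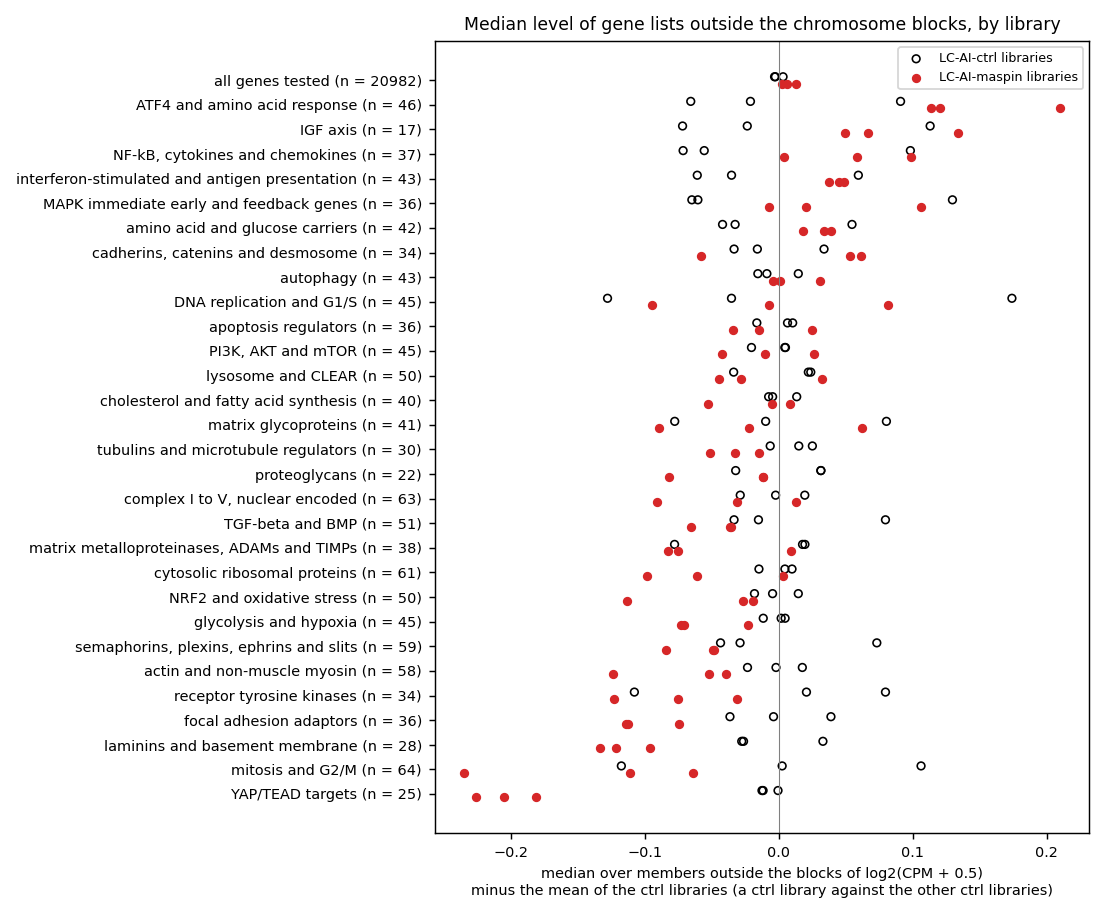
Median over the members of each list outside the chromosome blocks of log2(CPM + 0.5) minus the mean of the LC-AI-ctrl libraries (x axis), for each list (y axis, with the number of such members), with open circles for LC-AI-ctrl libraries, each against the other LC-AI-ctrl libraries, and red circles for LC-AI-maspin libraries. The red circles of YAP/TEAD targets and of ATF4 genes lie apart from their open circles, at -0.21, -0.23 and -0.18 and at 0.12, 0.21 and 0.11, while those of mitosis overlap. The circles lie apart in some other lists too, such as laminins and basement membrane (red at -0.10, -0.12 and -0.13) and focal adhesion adaptors (-0.11, -0.07 and -0.11).

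The element TTTGAA, or TTCAAA on the other strand, known as the cell cycle genes homology region, stood within 250 bases before the start of 12 of 26 falling mitotic genes (46.2%), of 17 of 34 that did not pass (50%) and of 10.8% of all 17696 promoters. Mitotic genes held it more often than the other promoters whether or not they passed. The matches in CDC20, on both strands, and in the kinesin KIF4A, which fell from 268 ± 16.2 to 229 ± 16.7 CPM (-0.22 ± 0.05; adjusted p = 0.0517 without LC-AI-maspin replicate 1), are shown in capitals on the strand of the gene.
CDC20, chr1:43358783-43358828, plus strand: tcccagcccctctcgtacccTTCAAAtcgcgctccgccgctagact
CDC20, chr1:43358896-43358941, plus strand: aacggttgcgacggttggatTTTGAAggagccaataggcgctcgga
KIF4A, chrX:70290050-70290095, plus strand: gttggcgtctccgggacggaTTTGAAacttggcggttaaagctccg

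Immune genes moved in both directions. Of 46 genes of NF-kB, cytokines and chemokines tested, 6 rose and 3 fell (19.6% in all). In the interferon and cytokine receptor lists below 21.8% and 19.0% passed. These shares are near the 21.4% of all genes of at least 10 CPM. NFKB2 measured 65.5, 60.2 and 63.7 CPM in LC-AI-ctrl against 83.5, 84.1 and 81.8 CPM in LC-AI-maspin libraries (log2 fold change 0.40 ± 0.05 (SE), adjusted p = 1.44e-06), its partner RELB rose from 16.7 ± 1.52 to 21.8 ± 1.497 CPM (0.39 ± 0.08), and the cytokine CSF1 fell from 48.3 ± 1.09 to 33.3 ± 1.46 CPM (-0.54 ± 0.06). Of 55 interferon-stimulated and antigen-presenting genes 8 rose (5 without LC-AI-ctrl replicate 3) and 4 fell (2 without LC-AI-ctrl replicate 3 or LC-AI-maspin replicate 1 or 3), among the latter IFITM2, on the rising portion of chromosome 11, at 57.3, 50.8 and 56.5 CPM in LC-AI-ctrl against 34.9, 36.7 and 32.5 CPM in LC-AI-maspin libraries (log2 fold change -0.66 ± 0.06 (SE), adjusted p = 5.11e-09). Among receptors of cytokines, of which 4 rose and 4 fell of 42, IL6R measured 39.6, 41.9 and 42.2 CPM in LC-AI-ctrl against 27.4, 26.7 and 27.7 CPM in LC-AI-maspin libraries (log2 fold change -0.60 ± 0.06 (SE), adjusted p = 1.79e-08) and TNFRSF11B, the decoy receptor osteoprotegerin in the block of chromosome 8, measured 75.3, 69.8 and 73.6 CPM in LC-AI-ctrl against 28.4, 29.8 and 26.3 CPM in LC-AI-maspin libraries (log2 fold change -1.37 ± 0.06 (SE), adjusted p = 1.45e-16). The leukocyte marker PTPRC was near 0, at 0.247 CPM in LC-AI-ctrl libraries. The 16 genes of its list summed to 74.4 CPM in LC-AI-ctrl and 80.3 CPM in LC-AI-maspin libraries, so that other members were expressed. Of 10 leukocyte markers tested 1 passed (10%), near the 10.5% of all genes tested. PI3K, AKT and mTOR genes had 8 lower (4 without LC-AI-ctrl replicate 3) and 3 higher of 54, with the lipid phosphatase INPP5D falling from 14.1 ± 1.34 to 8.63 ± 0.511 CPM (-0.70 ± 0.09), and p53 targets 5 higher and 3 lower of 37. The kinase SGK1 measured 71.9, 79.0 and 80.2 CPM in LC-AI-ctrl against 50.1, 50.6 and 47.8 CPM in LC-AI-maspin libraries (log2 fold change -0.64 ± 0.05 (SE), adjusted p = 1.09e-09).

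Counts in the remaining families were small. Of 69 potassium channels 2 rose and 2 fell, of 30 HOX genes 1 rose and 1 fell, of 16 connexins and pannexins 1 rose and 1 fell, of 20 protocadherins 1 fell, of 28 Notch genes 2 fell, both in blocks, and of 10 cancer-testis antigens 1 rose. Tubulins and their regulators had 8 lower and 3 higher of 35, which became 5 without LC-AI-ctrl replicate 2 or LC-AI-maspin replicate 1 and 3 without LC-AI-maspin replicate 3, among them STMN3, a microtubule destabiliser, at 19.3, 16.6 and 14.98 CPM in LC-AI-ctrl against 11.05, 8.18 and 7.23 CPM in LC-AI-maspin libraries (log2 fold change -0.95 ± 0.11 (SE), adjusted p = 6.37e-07). Of 69 semaphorins, plexins, ephrins and slits 7 fell and 2 rose, with the ephrin EFNA1 at 3.40, 3.36 and 4.19 CPM in LC-AI-ctrl against 1.25, 1.47 and 1.64 CPM in LC-AI-maspin libraries (log2 fold change -1.32 ± 0.17 (SE), adjusted p = 2.28e-06). Of 50 carriers of amino acids and glucose 7 fell (4 without LC-AI-maspin replicate 2, 3 without LC-AI-maspin replicate 3) and 5 rose, of 50 genes of cholesterol and fatty acid synthesis 5 fell and 4 rose, and of 45 regulators of apoptosis 6 fell and 3 rose. Plasminogen activators and serpins had 4 lower and 2 higher of 25, with 2 lower without LC-AI-maspin replicate 3, and neither rising member passed without LC-AI-ctrl replicate 3.

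The response of RERF-LC-AI cells was set against that of LK-2 cells by an interaction test in 1 fit of all 12 libraries, which called 494 of 28123 genes (1.76%). The count fell to 282 without LC-AI-ctrl replicate 3, 275 without LC-AI-maspin replicate 3, 306 without LK2-maspin replicate 2 and 316 without LK2-ctrl replicate 2, and rose to 754 without LK2-ctrl replicate 3. The test covers genes named above in which both lines were measured, and the differences are given as the log2 fold change in RERF-LC-AI minus that in LK-2 cells. ITGB4 fell more in RERF-LC-AI cells (difference -1.21 ± 0.17 (SE), adjusted p = 0.000547), and its log2 fold change in LK-2 cells was -0.24 ± 0.08. KRT8 also differed (-0.74 ± 0.08 (SE), adjusted p = 1.93e-05), with 0.27 ± 0.06 in LK-2 cells, and so did ZNF784 (-2.05 ± 0.16 (SE), adjusted p = 4.26e-07) and POF1B (2.14 ± 0.16 (SE), adjusted p = 4.26e-07). IGFBP3 differed too (-2.58 ± 0.20 (SE), adjusted p = 4.56e-07), and it rose in LK-2 cells, with a log2 fold change of 1.19 there. For PTK2B the difference was 0.65 ± 0.23 (SE), adjusted p = 0.218, for EGFR it was -0.58 ± 0.15 (SE), adjusted p = 0.0528, for DDIT4 it was 0.20 ± 0.44 (SE), adjusted p = 0.918 and for CAVIN2 it was 0.08 ± 0.09 (SE), adjusted p = 0.809, so that none of these 4 passed. In the blocks 154 of 1726 genes of at least 10 CPM passed this test (8.92%), 49 of them among the 290 of chromosome 9 from 70 to 140 Mb (16.9%), against 2.54% of such genes outside. The blocks were chosen by the RERF-LC-AI fold changes, which also enter this test. A higher share in the blocks thus follows in part from the choice and tests nothing.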

How the data were processed

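RNA from RERF-LC-AI and LK-2 pools was sequenced after poly(A) selection as paired reads, with 3 libraries in each of 4 groups. Per the submitters' processing notes, the authors used Trimmomatic 0.39, BWA 0.7.17, SAMtools (1.10 for RERF-LC-AI, 1.12 for LK-2) and edgeR 3.16.5 with the build GRCh38.p13. The tool for counting reads is not stated among these notes. The deposited counts are mapped reads per gene, not normalized, and of the counts from 1 to 9, 24.5% to 26.0% were odd in each RERF-LC-AI library, so that most of these hold both reads of a pair. Depth in these libraries ran from 50143577 to 65454432 counts, which limits the precision of genes at a few counts. The authors' scaled signal columns were not used. The 646 lines with no gene symbol (0.292% to 0.298% of counts) were left out.

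The 6 RERF-LC-AI libraries were compared with edgeR 4.0.16 in R 4.3.3 (filterByExpr with a minimum count of 10, TMM, glmQLFit and glmQLFTest, two-sided, Benjamini-Hochberg adjustment over 25197 genes, threshold 0.05). The biological coefficient of variation was 6.43%, and no replicate pair agreed within counting noise. The interaction with LK-2 used all 12 libraries. The study named the likelihood ratio test, which, like DESeq2 1.42.0, was run as an alternative. The code was tested on simulated counts. Gene positions and promoters came from a RefSeq table of GRCh38.p14, whose chromosome coordinates are those of GRCh38.p13. Figures were drawn with matplotlib 3.10.9.

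Members and lists were chosen with earlier results of these data known. Genes were named if they were given by name in the study, among the 15 largest rises or 15 largest falls with a mean of at least 1 CPM and no overlap, among the 10 most abundant or the 10 with the smallest interaction p of those that passed, or cell type markers. In each of 61 lists, the 6 members with the smallest adjusted p that passed, the 2 with the smallest in the opposite direction and the member with the highest level could be named.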

Additional observations from a re-analysis of the deposited data

Results flagged for a closer look

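Of the 153 genes whose change is described above, 58 had a response that differed between RERF-LC-AI and LK-2 cells at an adjusted p under 0.05 in edgeR's interaction test, 47 with a log2 fold change further down in RERF-LC-AI cells and 11 further up. The values below are the log2 fold change in RERF-LC-AI minus that in LK-2 cells. Many of these genes were named because they changed in RERF-LC-AI cells, so that a share of differences in this direction follows from the choice. 7 of the 58 passed the test within each line. Of these, IGFBP3, ETS1, SFN, STMN3 and TGFB2 fell in RERF-LC-AI cells and rose in LK-2 cells, while SERPINB5 and MYH14 rose in both.

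Of genes further up in RERF-LC-AI cells, the difference was 6.52 for SERPINB5, the gene that the vector carries. The other differences above 0 were POF1B 2.14, RAB39B 1.13, PAPPA2 1.05, ETV4 0.64, NFKB2 0.49, ETV5 0.49, STC2 0.49, RPL32 0.40, EDEM1 0.38 and NUP210 0.37. RPL32, EDEM1, NUP210 and ETV5 lie in rising blocks of chromosome 3.

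Among genes of adhesion, the actin skeleton and the matrix, the differences were ITGB4 -1.21, TNS3 -0.49, ACTN4 -0.41, MYH14 -1.02, VAV2 -0.37, SIPA1 -0.77, LAMB1 -0.58, COL5A1 -1.24, MATN2 -1.22, FSTL1 -0.79, ADAM19 -0.96 and MMP14 -0.49. MYH14 rose in RERF-LC-AI cells and its difference lies below 0, since its log2 fold change in LK-2 cells was higher. For carriers and enzymes of heparan sulfate they were SDC1 -0.74, SDC2 -1.549 and EXT1 -0.70. Genes of epithelial cells and junctions differed by KRT8 -0.74, KRT18 -0.64, SFN -0.80, CLDN7 -1.19, PKP2 -0.54, DSP -0.44, S100A4 -1.62 and ANXA2 -0.38.

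Genes of growth factor and TGF-beta signalling differed by IGFBP3 -2.58, IGFBP7 -1.69, IGFBP4 -1.48, IRS1 -1.03, FGFR3 -0.99, NRG1 -0.95, PDGFB -0.88, ENG -1.001, SMAD6 -0.74, TGFB2 -0.87, INPP5D -1.14 and SGK1 -1.07. Members of the YAP/TEAD list or pathway differed by F3 -0.95, CRIM1 -0.57, LATS2 -0.50 and YAP1 -0.33. Of the rest, the differences were ZNF784 -2.05, TNFRSF11B -1.94, ETS1 -1.61, STMN3 -1.53, PRDX2 -0.51, CKS2 -0.48, PSAT1 -0.46 and ANLN -0.37. The adjusted p of the 58 genes ran from 3.22e-14 to 0.0447, with PAPPA2 and VAV2 nearest to the threshold (0.0447 and 0.0426).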

How the results depend on the processing

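The 2655 genes that passed (1010 higher, 1645 lower) became 1642 at an adjusted p under 0.01 (578 and 1064), 356 when tested against a 1.2-fold change (94 and 262), 1163 in 1 fit of all 12 libraries (411 and 752) and, in a count chosen after seeing the data, 1605 outside the chromosome blocks (557 and 1048). Leaving out 1 library gave 1764 to 2594 genes, 628 to 1062 higher and 1069 to 1532 lower. The 494 genes that differed between the lines became 884 in the likelihood ratio test and 275 to 754 when 1 library was left out. The other alternatives (scaling, filters, DESeq2, the likelihood ratio test and halved counts) moved the RERF-LC-AI counts by less than 1.5 times. SERPINB5 and PTK2B passed in every fit that tested them (SERPINB5 is removed by a minimum of 10 counts in every library), with SERPINB5 at 10.97 to 11.44 when a library was left out.

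Over all genes tested same-numbered libraries correlated at 0.04, 0.05 and 0.00, under the 0.1 set for pairing, so that the fit without a block was kept. Over the 10471 more abundant genes, those at a mean log2 CPM above 3, they correlated at 0.37, 0.39 and 0.20, and each library correlated best with its own number, which is a hint of pairing from the data, not from the design. With the replicate number as a block, 4081 genes passed (1598 higher, 2483 lower) and 2273 differed between the lines. The block left 46 mitotic genes, 19 YAP/TEAD targets and 3 genes of the ATF4 list lower and 30 of the latter higher.

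Of the 142 genes named besides SERPINB5 and PTK2B that passed, 110 passed in every alternative fit, 32 lost the call in at least 1, and 0 changed sign. Genes not called turned, SRC to -0.0030 with RLE size factors, -0.0028 in DESeq2 and between -0.0631 and 0.0615 when 1 library was left out, and GAPDH to 0.00759 with library size alone and between -0.0700 and 0.00405 when 1 library was left out. The cause of these moves was not tested. In alternatives chosen after seeing the data, the chromosome blocks held 83.8% to 100% of the same genes in every alternative fit, 89.5% with 5 Mb windows, 90.6% with 20 Mb windows and 62.0% with a shift over 0.15. Depth limited genes under 1 CPM, of which 0.848% were called. With 3 libraries of 1 pool per group, a pool could not be told from its treatment.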
